A study of Mus musculus with 6 samples.

Results

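Dendritic cell genes and the chemokine Xcl1 were compared in whole B16-F10 tumors from mice given adoptive cell transfer (ACT) with either IL-2 or NKTR-214. The 10 genes were taken by symbol from the 21358 entries of the deposited expression table: Xcl1, Xcr1, Clec9a, Batf3, Irf8, Flt3, Zbtb46, Cd209a, Itgax and Siglech. The hosts were C57/BL6 mice carrying subcutaneous tumors of the B16F10 line, a pigmented melanoma of the same strain, and treatment began once tumors had reached at least 150 mm3. All mice received total body irradiation and then a single transfer of pmel-1 T cells, whose transgenic receptor recognizes the melanoma antigen gp100, activated beforehand with the gp100 peptide. The ACT + IL-2 group then received IL-2, and the ACT + NKTR-214 group received NKTR-214, an IL-2 that carries releasable polyethylene glycol chains. Tumors were taken at day 12 after treatment, 3 per group, each labelled as a biological replicate. By the study's schedule, a second course of either cytokine had been given before this day. No untreated tumor and no ACT without cytokine were part of the RNA data, and the doses and schedules of the cytokines differed, so the drug and its schedule cannot be told apart.

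Conventional dendritic cells take up tumor antigen and present it to T cells, and fall into type 1 (cDC1) and type 2 (cDC2) cells, beside plasmacytoid dendritic cells that secrete type I interferon. cDC1 depend on the transcription factors IRF8 and BATF3, cross-present antigen to CD8 T cells and carry the chemokine receptor XCR1. Its ligand XCL1 is secreted mainly by activated CD8 T cells and NK cells, so the pair links these lymphocytes to cDC1. FLT3 ligand, acting through FLT3, drives the growth of all these dendritic cell types.

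Whole tumors were sequenced, so every level below is an average over melanoma, stromal and immune cells, and fewer cells of a type and less RNA per cell cannot be told apart. Levels are FPKM, reads per length of gene and per sequenced library, which allow levels of different genes to be compared, and they were used as deposited. The libraries differed in overall scale, with FPKM sums from 176419.8 to 246513.7, so the calls were repeated under other scalings. In low-level genes the FPKM steps of 1 read gave an estimated 20900000 to 24600000 reads behind each library. Leukocyte transcripts differed between the groups: Ptprc, which encodes the pan-leukocyte protein CD45, stood at 17.7, 8.79 and 7.57 FPKM in ACT + IL-2 tumors and at 66.5, 74.6 and 40.5 FPKM in ACT + NKTR-214 tumors. All 10 of 10 T cell genes and 14 of 14 monocyte and macrophage genes were higher with NKTR-214, whereas 5 of 7 melanocyte lineage genes were lower. Over all 14172 tested genes, 20.7% were higher and 8.28% lower by the same test (limma adjusted p under 0.05). The part of these shifts in the levels of the dendritic cell genes was not tested beyond the ratios given further on. One ACT + IL-2 tumor, replicate 1, had the highest level of its group for 9 of the 10 genes, ACT + NKTR-214 replicate 2 was the highest of its group for all 10, and ACT + NKTR-214 replicate 3 the lowest for 8.

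The question was first asked of the ligand. Xcl1 stood at 7.91, 5.03 and 4.65 FPKM in ACT + IL-2 tumors and at 22.0, 25.4 and 10.4 FPKM in ACT + NKTR-214 tumors. Every ACT + NKTR-214 tumor was above every ACT + IL-2 tumor, and replicate 3 was the lowest of them. The mean rose from 5.86 ± 1.78 to 19.3 ± 7.88 FPKM (SD, n = 3 per group), 3.28-fold, and the log2 fold change of FPKM + 1 was 1.5 (SE 0.26, limma with Benjamini-Hochberg adjusted p = 0.000365). By the recovered steps these levels corresponded to an estimated 95, 58 and 49 reads with IL-2 and to 273, 312 and 124 reads with NKTR-214. In the annotation, 18.7% of the Xcl1 exon bases overlap those of the gene Gm20743, and how such reads were assigned is not given in the sources used here.

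Its receptor and the second cDC1 surface marker moved in the same direction at lower levels. Xcr1 stood at 1.22, 0.678 and 0.624 FPKM in ACT + IL-2 tumors and at 2.59, 2.86 and 1.22 FPKM in ACT + NKTR-214 tumors. The groups only just failed to overlap, since the lowest ACT + NKTR-214 tumor and the highest ACT + IL-2 tumor both held 129 reads. The mean was 2.65-fold higher with NKTR-214, with a log2 fold change of 0.78 (SE 0.19, limma adjusted p = 0.00503), but the adjusted p was 0.0529 after quantile normalization and 0.0844 without ACT + IL-2 replicate 2.

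Clec9a encodes DNGR-1, a receptor for actin filaments exposed on dead cells by which cDC1 handle antigen from them. Its level was 1.40, 0.823 and 0.973 FPKM in ACT + IL-2 tumors and 3.25, 3.65 and 1.62 FPKM in ACT + NKTR-214 tumors. The groups did not overlap, and again replicates 1 and 2 with NKTR-214 lay well above replicate 3. The mean was 2.67-fold higher, with a log2 fold change of 0.86 (SE 0.19, limma adjusted p = 0.00283). The call was lost without ACT + IL-2 replicate 2 (adjusted p = 0.065), and 5.59% of the Clec9a exon bases overlap those of its neighbour Clec1b.

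Because the ligand, its receptor and Clec9a rose together, the sequence before their start sites is shown, 250 bases upstream of the RefSeq start and read in the direction of the gene, in build GRCm38.p6. The Xcl1 window is chr1:164935523-164935772 on the minus strand, the Xcr1 window chr9:123862030-123862279 on the minus strand and the Clec9a window chr6:129408612-129408861 on the plus strand. Capitals mark a match to any of 7 short motifs of factors known from T cells, NK cells and dendritic cells.
Xcl1 promoter: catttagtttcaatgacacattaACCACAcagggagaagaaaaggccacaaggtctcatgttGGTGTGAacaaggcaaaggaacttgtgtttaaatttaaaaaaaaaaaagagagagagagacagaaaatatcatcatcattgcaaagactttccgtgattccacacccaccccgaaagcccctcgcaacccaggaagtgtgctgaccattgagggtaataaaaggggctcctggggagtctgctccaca
Xcr1 promoter: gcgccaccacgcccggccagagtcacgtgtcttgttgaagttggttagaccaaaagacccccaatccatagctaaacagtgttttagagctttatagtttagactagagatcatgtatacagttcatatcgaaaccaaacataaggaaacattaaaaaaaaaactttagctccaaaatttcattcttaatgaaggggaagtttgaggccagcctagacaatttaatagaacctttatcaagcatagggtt
Clec9a promoter: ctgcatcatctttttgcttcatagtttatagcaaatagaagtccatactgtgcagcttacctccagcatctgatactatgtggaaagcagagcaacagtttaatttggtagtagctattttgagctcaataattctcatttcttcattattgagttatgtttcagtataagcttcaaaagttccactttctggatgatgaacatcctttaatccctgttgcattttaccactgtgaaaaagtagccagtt
The motifs, searched on both strands, were TGANTCA (AP-1), GAGGAA (PU.1), TGTGGT (RUNX), TCACACC (T-box) and TGGAAAA (NFAT), with the IRF response element and the ETS-IRF composite element as the other two, and no matches of different motifs overlapped in the windows shown. The Xcl1 window held a RUNX match and a T-box match, both on the opposite strand, the latter 188 to 182 bases before the start. Of 32851 mouse windows of this length, 14.0% held the RUNX letters and 3.33% the T-box letters. The Xcr1 and Clec9a windows held none of the 7 motifs. A match describes these letters and does not show a binding site.

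Batf3 and Irf8 encode the transcription factors on which cDC1 depend. Both factors also work in other cells, Batf3 in activated T cells and Irf8 in macrophages and B cells. Batf3 stood at 3.59, 2.14 and 1.68 FPKM in ACT + IL-2 tumors and at 7.44, 8.63 and 7.15 FPKM in ACT + NKTR-214 tumors. The groups were clearly apart, and unlike for Xcl1, Xcr1 and Clec9a, replicate 3 with NKTR-214 was close to replicate 1. The mean was 3.14-fold higher, with a log2 fold change of 1.37 (SE 0.19, limma adjusted p = 5.26e-05).

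Irf8 was the most abundant of the 10 genes in both groups and had the smallest ratio of means among those that rose. Its level was 42.7, 30.4 and 28.7 FPKM in ACT + IL-2 tumors and 48.9, 54.0 and 44.0 FPKM in ACT + NKTR-214 tumors. The highest ACT + IL-2 tumor nearly reached the lowest ACT + NKTR-214 tumor. The mean was 1.44-fold higher, with a log2 fold change of 0.53 (SE 0.17, limma adjusted p = 0.0265). The call did not hold in 4 of the 6 fits that left out 1 tumor, namely ACT + IL-2 replicates 2 and 3 (adjusted p = 0.0936 and 0.148) and ACT + NKTR-214 replicates 1 and 2 (0.0569 and 0.0939).

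Of 3 genes shared by conventional dendritic cells, 2 rose and 1 did not pass the test. Flt3, the receptor for FLT3 ligand, stood at 0.628, 0.309 and 0.391 FPKM in ACT + IL-2 tumors and at 1.07, 1.34 and 0.700 FPKM in ACT + NKTR-214 tumors. The groups did not overlap, and the mean was 2.34-fold higher with a log2 fold change of 0.49 (SE 0.13, limma adjusted p = 0.00917). The call was lost after quantile normalization (adjusted p = 0.0714) and without ACT + IL-2 replicate 2 (0.0847). At levels near and below 1 FPKM the added pseudocount of 1 makes the log2 fold change smaller than the ratio of means.

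Itgax encodes CD11c, the integrin chain used to identify dendritic cells, which macrophages and some activated lymphocytes also carry. It stood at 6.21, 4.19 and 3.41 FPKM in ACT + IL-2 tumors and at 15.8, 19.4 and 13.9 FPKM in ACT + NKTR-214 tumors. No tumors of the groups overlapped, and the 3.55-fold rise in the mean was the largest among the 10 genes (log2 fold change 1.65, SE 0.19, limma adjusted p = 8.22e-06). In the annotation, 8.02% of the 50-base stretches of Itgax also occur in the related integrin gene Itgad.

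Zbtb46 encodes a transcription factor that sets conventional dendritic cells apart from monocytes and macrophages, and that endothelial cells also express. Its level was 1.33, 1.04 and 1.65 FPKM in ACT + IL-2 tumors and 1.48, 1.74 and 0.961 FPKM in ACT + NKTR-214 tumors, so the groups overlapped throughout. The lowest and the highest of all 6 tumors were both ACT + NKTR-214 tumors. The log2 fold change was 0.03 with a 95% interval from -0.29 to 0.34 (limma adjusted p = 0.916), and its sign turned to -0.04 after scaling to a common 75th percentile and to -0.26 after quantile normalization. By reads, 300 in ACT + IL-2 tumors faced 339 in ACT + NKTR-214 tumors, a ratio per sequenced read of 1.05 with a 95% interval of 0.897 to 1.23 that covers counting error only. Against the 2.65-fold and 2.67-fold higher means of Xcr1 and Clec9a, the mean of Zbtb46 differed 1.04-fold.

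The single cDC2 gene and the single plasmacytoid gene of the 10 were close to the limit of detection. Cd209a encodes a DC-SIGN-like lectin of cDC2 and of monocyte-derived cells, and stood at 0.423, 0.147 and 0.0643 FPKM in ACT + IL-2 tumors and at 0.109, 0.304 and 0.255 FPKM in ACT + NKTR-214 tumors. The groups overlapped, and the ACT + IL-2 tumors held both the highest and the lowest value. These levels came from 15, 5 and 2 reads against 4, 11 and 9 reads, a ratio per sequenced read of 1.01 with a 95% counting interval of 0.545 to 1.9. The log2 fold change was 0.02 with a 95% interval of -0.21 to 0.25 (limma adjusted p = 0.913), and after quantile normalization it was -0.10.

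Siglech encodes Siglec-H, a surface lectin that marks mouse plasmacytoid dendritic cells. It stood at 0.101, 0.0352 and 0 FPKM in ACT + IL-2 tumors and at 0.0326, 0.0496 and 0.0339 FPKM in ACT + NKTR-214 tumors. This was 6, 2 and 0 reads against 2, 3 and 2 reads. It fell short of the mean of 0.1 FPKM that a gene had to reach to be tested, and the 0 in ACT + IL-2 replicate 3 allows up to 3 reads, or 0.0578 FPKM. The ratio per sequenced read was 0.813 with a 95% counting interval of 0.251 to 2.57. That interval covers counting error only and leaves out the spread between tumors, and no detection limit was computed.

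**Figure D1:**
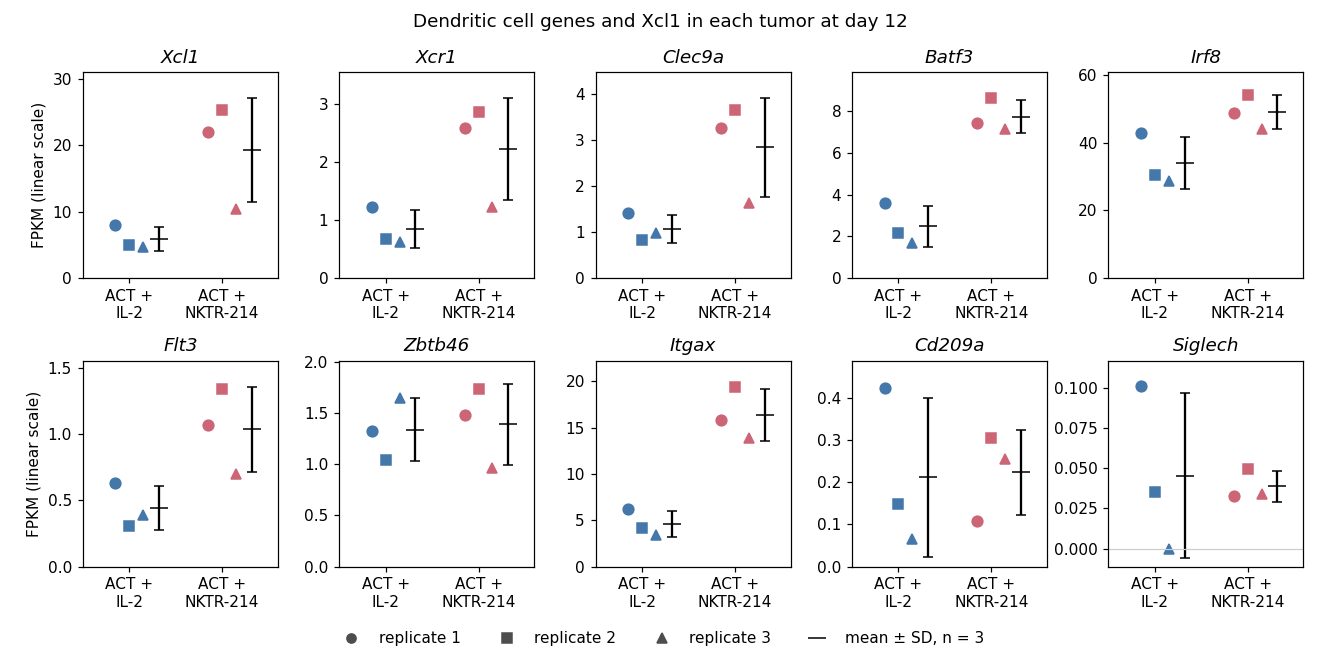
FPKM of each gene in every tumor on a linear scale, with ACT + IL-2 in blue, ACT + NKTR-214 in red, a symbol for each replicate number and black bars for the mean ± SD (n = 3). Xcl1, Xcr1, Clec9a, Batf3, Irf8, Flt3 and Itgax have all 3 red points above all 3 blue points, whereas Zbtb46, Cd209a and Siglech overlap.

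Of the 10 genes, 9 passed the filter on low values, 7 were higher with ACT + NKTR-214, 0 were lower and 2 did not pass the test. No tested member had a negative fold change at an unadjusted limma p under 0.05 either. For comparison, 20.7% of all 14172 tested genes were higher, 8.28% lower and 29.0% either in the same fit, and the median log2 fold change was 0.78 over the 9 tested members and 0.05 over all tested genes. The groups did not overlap for 7 of the 9, all of them higher, against 27.1% of all tested genes that lay higher and apart, 15.3% that lay lower and apart and 42.4% in either direction. The reported fit moderates each gene's variance toward a trend across genes. Without that moderation, 0 of the 7 were called in the linear model (adjusted p from 0.0604 to 0.158, 5 at an unadjusted p under 0.05). Without ACT + IL-2 replicate 2, Xcl1, Batf3 and Itgax were still called, and the other 4 were not, at log2 fold changes of 0.72 for Xcr1, 0.78 for Clec9a, 0.46 for Irf8 and 0.42 for Flt3. That tumor had the lowest FPKM sum and the lowest 75th percentile of the 6 libraries, 7.904 FPKM against 9.367 to 10.506 FPKM in the others, and the part of this in the lost calls was not tested. Under other scalings the lower calls over all genes rose from 1173 to 3709 with a common 75th percentile and to 4549 with quantile normalization. The higher calls over all genes were 3259 and 2669, where the reported fit had 2940. Of the members, 7 and 5 were higher and 0 lower.

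By level, the order in ACT + IL-2 tumors was Irf8 (mean 34.0 FPKM), Xcl1 (5.86), Itgax (4.60), Batf3 (2.47), Zbtb46 (1.34), Clec9a (1.07), Xcr1 (0.840), Flt3 (0.443), Cd209a (0.211) and Siglech (0.0455). Neighbours in this order overlapped in their tumors, except that Irf8 lay apart from Xcl1 and Batf3 just apart from Zbtb46. In ACT + NKTR-214 tumors the order was Irf8 (48.9), Xcl1 (19.3), Itgax (16.4), Batf3 (7.74), Clec9a (2.84), Xcr1 (2.23), Zbtb46 (1.39), Flt3 (1.04), Cd209a (0.223) and Siglech (0.0387). The order thus differed only in Zbtb46, which stood above Clec9a and Xcr1 with IL-2 and below both with NKTR-214, where both were above Zbtb46 in each of the 3 tumors. With IL-2, Zbtb46 was above Xcr1 in each of the 3 tumors and above Clec9a in replicates 2 and 3. In ACT + NKTR-214 tumors, Irf8 and Xcl1, Itgax and Batf3, Batf3 and Clec9a, Flt3 and Cd209a, and Cd209a and Siglech lay apart, and the other neighbours overlapped.

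Other genes of each dendritic cell type were read from wider lists that hold the 10 genes. For comparison with the counts below, 20.7% of all tested genes were higher and 8.28% lower. Without moderation of the variances, 0 genes of any of the 6 lists were called higher and 0 cDC1 genes lower. In the cDC1 list, 11 of 14 genes were higher, 1 was lower and 2 did not pass the test, with a median log2 fold change of 0.82. Naaa, a lysosomal acid amidase, rose from 13.6 ± 6.11 to 44.2 ± 10.5 FPKM (log2 fold change 1.68, SE 0.24, limma adjusted p = 5.9e-05). Cd24a, the gene of a surface glycoprotein of cDC1 and of many other cells, rose from 2.04 ± 0.794 to 7.56 ± 0.939 FPKM (1.52, SE 0.19, adjusted p = 1.61e-05). The gene that fell was Cadm1, an adhesion molecule that is not restricted to cDC1, from 52.5 ± 7.05 to 37.6 ± 6.74 FPKM (log2 fold change -0.48, SE 0.17, adjusted p = 0.043). At 29.8 FPKM or more in every tumor, its level was far above those of Xcr1 and Clec9a. The Cadm1 call did not hold with no minimum on the mean level, nor when either ACT + IL-2 replicate 3 or ACT + NKTR-214 replicate 2 was left out. The number of higher cDC1 genes fell to 7 without ACT + IL-2 replicate 2, and 2 cDC1 genes were lower under either other scaling. Without the members, 7 of 10 cDC1 genes were higher and 1 was lower.

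In the cDC2 list, 7 of 10 genes were higher, 0 were lower (0 also at an unadjusted p under 0.05) and the median was 0.80. Cd209d, counted among the 7, passed the filter only through the ACT + NKTR-214 tumors, with means of 0.0658 FPKM with IL-2 and 0.811 FPKM with NKTR-214. Mgl2, a galactose-binding lectin of cDC2 and of alternatively activated macrophages, stood at 2.43, 1.15 and 1.08 FPKM with IL-2 and at 11.0, 19.0 and 13.6 FPKM with NKTR-214 (log2 fold change 2.61, SE 0.22, limma adjusted p = 4e-07). Its relative Clec10a stood at 7.18, 1.80 and 0.952 FPKM against 12.7, 22.1 and 16.4 FPKM (2.31, SE 0.36, adjusted p = 0.000172). Both lectins lay higher in every ACT + NKTR-214 tumor, while Cd209a, of the same list, overlapped.

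In the plasmacytoid list, 2 of the 9 tested genes were higher, a share near the 20.7% of all tested genes, and 0 were lower (0 also at an unadjusted p under 0.05), with a median of 0.15. The number higher changed to 1 on leaving out ACT + IL-2 replicate 2 and to 5 on leaving out ACT + NKTR-214 replicate 3, and 1 gene was lower after quantile normalization. The 2 that rose were Runx2, a transcription factor that T cells and stromal cells also express, and Irf7, the interferon-induced regulator of type I interferon genes. Runx2 rose from 0.584 ± 0.178 to 3.12 ± 0.543 FPKM (log2 fold change 1.38, SE 0.14, limma adjusted p = 3.04e-06) and Irf7 from 24.2 ± 6.58 to 42.0 ± 11.3 FPKM (0.77, SE 0.20, adjusted p = 0.0092). Siglech and Ccr9, surface receptors of plasmacytoid cells, were both too low to be tested.

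In the list of genes that conventional dendritic cells share, 3 of 5 genes were higher and 0 were lower, although Kit had an unadjusted p under 0.05 on the low side. Besides Itgax, the largest change was that of Dpp4, the peptidase CD26, which is also found on T cells, from 0.571 ± 0.369 to 3.25 ± 1.15 FPKM (log2 fold change 1.42, SE 0.20, limma adjusted p = 4.94e-05). Kit, the stem cell factor receptor that melanocytes also carry, stood at 3.70 ± 0.745 against 2.39 ± 0.577 FPKM (-0.47, adjusted p = 0.052). In this list 1 gene was lower under either other scaling.

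Genes of mature or migratory dendritic cells were higher for 8 of 12 genes and lower for 0, with 1 gene, Cacnb3, on the low side at an unadjusted p under 0.05, and a median of 0.89. Ccl17, a chemokine for CCR4-bearing T cells, stood at 1.30, 0.254 and 0.835 FPKM with IL-2 and at 11.3, 21.7 and 19.0 FPKM with NKTR-214 (log2 fold change 3.35, SE 0.24, limma adjusted p = 1.03e-07). Its mean was 21.8-fold higher, the largest ratio in the 6 dendritic cell lists. Socs2, a feedback inhibitor of cytokine signaling, rose from 1.07 ± 0.338 to 6.58 ± 1.67 FPKM (1.86, SE 0.18, adjusted p = 1.95e-06). Il12b, the cytokine subunit by which dendritic cells activate T and NK cells, did not pass the test, with 0.535, 0.174 and 0.286 FPKM against 0.323, 0.311 and 0.151 FPKM (log2 fold change -0.07, 95% interval -0.30 to 0.16). Under either other scaling 1 gene of this list was lower.

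Growth factors and chemoattractants of dendritic cells, with their receptors, were higher for 10 of 11 tested genes and lower for 0 (0 also at an unadjusted p under 0.05), and the median of 1.51 was the highest of the 6 lists. Ccl5, a chemokine of activated T and NK cells that attracts dendritic cells, rose from 67.6, 35.6 and 25.1 FPKM to 265, 248 and 123 FPKM (log2 fold change 2.32, SE 0.31, limma adjusted p = 4.2e-05). Csf2rb, the common beta chain of the GM-CSF receptor, rose from 4.02 ± 1.72 to 22.9 ± 5.59 FPKM (2.28, SE 0.22, adjusted p = 1.52e-06). Flt3l, the ligand of FLT3, stood at 3.65, 1.86 and 1.90 FPKM against 11.6, 14.5 and 9.31 FPKM, 4.78-fold higher, beside the 2.34-fold of its receptor. Flt3l and Il12b were named for their roles after their values were seen. Ccr6 and Ccl20, a receptor and its ligand, were too low to be tested.

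**Figure D2:**
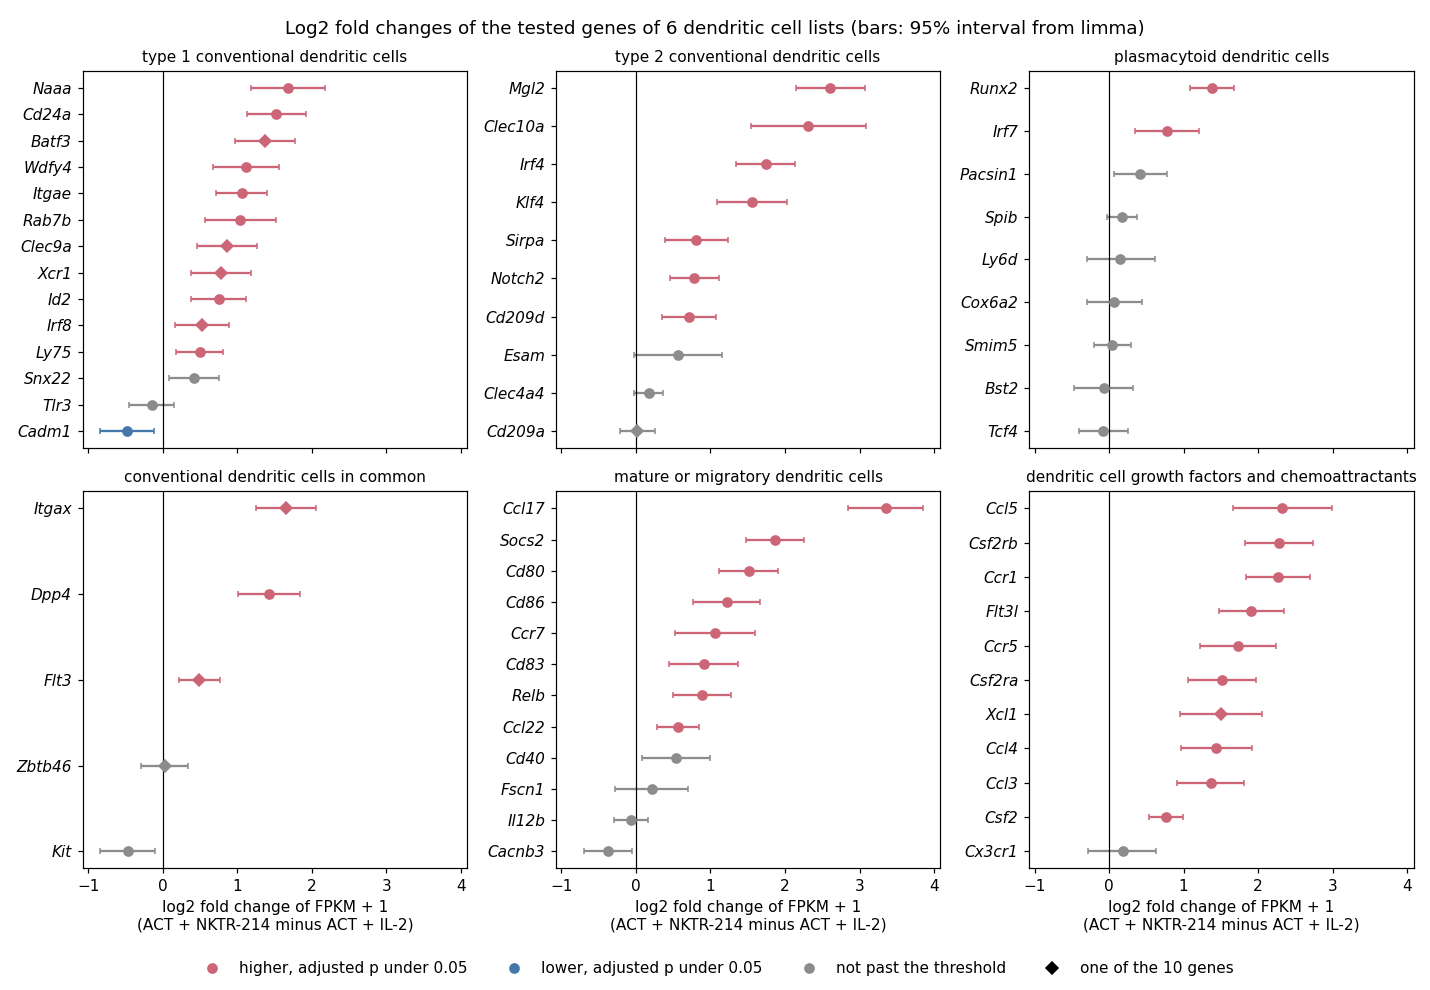
Log2 fold change of FPKM + 1 (ACT + NKTR-214 minus ACT + IL-2) of every tested gene of the 6 dendritic cell lists, with 95% intervals from limma, diamonds for the 10 genes, red for higher, blue for lower and gray for genes that did not pass the test. Ccl17 lies farthest to the right at 3.35, Cadm1 is the only blue point at -0.48, and most plasmacytoid genes lie near 0.

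Many genes of these lists are also expressed by macrophages, T cells or melanoma cells, and marker genes of those cells moved too. The counts of higher genes given below stand beside the 20.7% of all tested genes that were higher. The summed level of the 14 monocyte and macrophage genes was 415 to 1200 FPKM in ACT + IL-2 tumors and 1900 to 3430 FPKM in ACT + NKTR-214 tumors. The 10 T cell genes summed to 24.5 to 60.7 FPKM against 277 to 559 FPKM, with a median log2 fold change of 3.38. The 7 NK cell genes summed to 1.96 to 4.65 FPKM against 16.8 to 33.4 FPKM, with 4 of 6 tested genes higher, and Klrc1 and Klre1 made up most of the sum with NKTR-214. Of the others, Klra8 had a log2 fold change of 0.01 and did not pass the test, and Klra4, too low to be tested, stood at 0.086, 0.224 and 0.147 FPKM against 0.0415, 0.0421 and 0 FPKM. The melanocyte genes moved the other way, from 5410 to 6930 FPKM down to 2660 to 3760 FPKM. The 5 genes of lymph node stroma and high endothelium summed to 0.108 to 0.291 FPKM against 0.843 to 2.18 FPKM, and 1 of 2 tested was higher, Cxcl13, a chemokine of lymphoid follicles, at 0.144, 0.113 and 0.0411 FPKM against 1.6, 1.69 and 0.724 FPKM (log2 fold change 1.06, limma adjusted p = 4.17e-05). Cxcl13 was named after its values were seen. Its ACT + IL-2 mean of 0.0993 FPKM was below the filter of 0.1 FPKM, which it passed only through the ACT + NKTR-214 tumors. Ccl21a, of the same list, was the only gene of any list at 0 FPKM in all 6 tumors. B cell genes summed to 1.03 to 2.17 FPKM against 1.02 to 1.65 FPKM, with 0 of 2 tested genes called, and the 6 neutrophil genes summed to 4.11 to 9.44 FPKM against 22.3 to 50.3 FPKM with 5 of 5 tested genes higher.

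**Figure D3:**
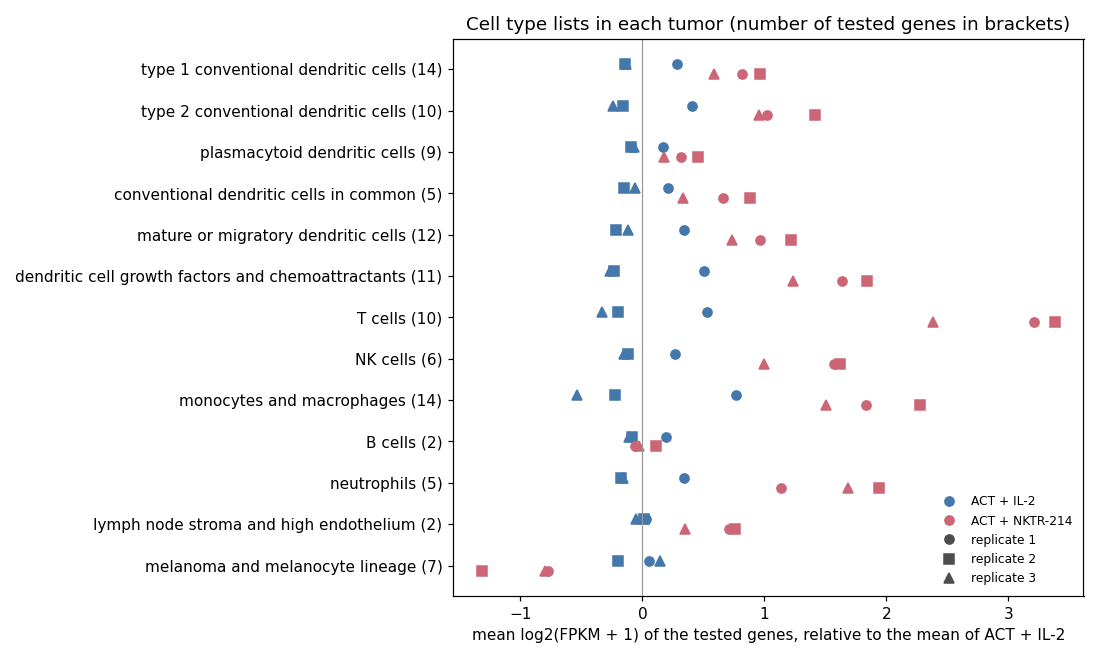
Mean log2(FPKM + 1) of the tested genes of 13 cell type lists in each tumor, relative to the mean of the 3 ACT + IL-2 tumors, with blue for ACT + IL-2, red for ACT + NKTR-214 and a symbol for each replicate number. T cell genes lie farthest to the right in red and melanocyte genes to the left, the red and blue points of B cell genes overlap, and among the dendritic cell lists those of the plasmacytoid list lie closest together.

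Since the level of leukocyte transcripts differed, each gene was also read against Ptprc in the same tumor, as a plain ratio of FPKM. Per 100 FPKM of Ptprc, Xcr1 stood at 6.88, 7.72 and 8.24 in ACT + IL-2 tumors and at 3.90, 3.84 and 3.02 in ACT + NKTR-214 tumors. Clec9a stood at 7.91, 9.36 and 12.9 against 4.89, 4.90 and 4.02. Relative to Ptprc, both cDC1 markers were thus lower in every ACT + NKTR-214 tumor, at 0.471 and 0.458 of the ACT + IL-2 mean, while their levels in the whole tumor were higher. The same direction held for Xcl1 (ratio 0.568), Batf3 (0.605), Itgax (0.658), Flt3 (0.420), Irf8 (0.263), Cd209a (0.245) and Zbtb46 (0.169), each lower in all 3 ACT + NKTR-214 tumors. Siglech overlapped. For each of the 9 genes that did not overlap, the exact two-sided permutation test gave p = 0.1, the smallest that 3 against 3 tumors allow, so no such ratio could pass 0.05 (adjusted p = 0.133 over 40 ratios).

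Against Csf1r, the receptor gene of macrophages, the picture differed between genes. The mean of Csf1r itself was 2.88-fold higher with NKTR-214. Per 100 FPKM of Csf1r, Xcr1 stood at 3.14, 4.24 and 5.02 with IL-2 and at 4.46, 3.43 and 2.35 with NKTR-214, and Clec9a at 3.61, 5.14 and 7.82 against 5.60, 4.38 and 3.13, so both overlapped. Batf3, Itgax, Flt3 and Xcl1 overlapped as well, whereas Irf8, Zbtb46 and Cd209a were lower in all 3 ACT + NKTR-214 tumors, at 0.439, 0.280 and 0.413 of the ACT + IL-2 mean (exact permutation p = 0.1). Against the mean of the macrophage list on the log2(FPKM + 1) scale, Xcr1 differed by -1.09 and Clec9a by -1.01 between the groups, lower in all 3 tumors (exact permutation p = 0.1, adjusted p = 0.118 over 20 comparisons). On that scale low genes are held down by the pseudocount, and without it the differences were -0.61 and -0.62, when Xcr1 was still lower in all 3 tumors (exact permutation p = 0.1) but Clec9a overlapped (exact permutation p = 0.2). Irf8, Flt3, Zbtb46, Cd209a and Siglech were also lower in all 3 tumors against the macrophage list, while Batf3 and Itgax overlapped. Flt3 differed by -1.38, and by -0.75 without the pseudocount (exact permutation p = 0.1 for each).

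**Figure D4:**
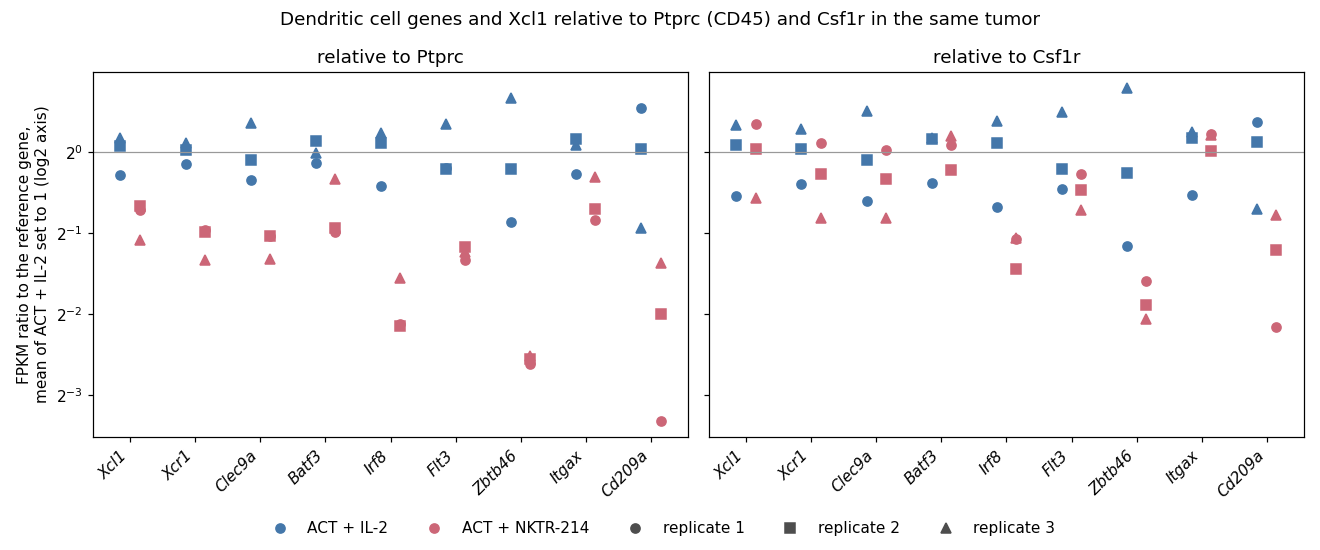
Ratio of the FPKM of 9 of the 10 genes to that of Ptprc (left) and of Csf1r (right) in the same tumor, with the mean of ACT + IL-2 set to 1, on a log2 axis, with blue for ACT + IL-2, red for ACT + NKTR-214 and a symbol for each replicate number; Siglech is not drawn. Against Ptprc every red point lies below every blue point of the same gene for the 9 genes drawn, and against Csf1r this holds for Irf8, Zbtb46 and Cd209a.

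The ligand was also read against the lymphocytes that can produce it. On the log2(FPKM + 1) scale, Xcl1 minus the mean of the 10 T cell genes was 0.82, 0.98 and 1.02 in ACT + IL-2 tumors and -0.50, -0.46 and -0.69 in ACT + NKTR-214 tumors. Relative to T cell genes, Xcl1 was lower in every ACT + NKTR-214 tumor, by -1.49 on average (exact two-sided permutation p = 0.1, adjusted p = 0.118 over 20 comparisons). Per 100 FPKM of Cd3e, a subunit of the T cell receptor complex, Xcl1 stood at 149, 255 and 234 against 42.5, 43.6 and 39.3, a ratio of 0.197. The mean of Cd3e itself was 14.7-fold higher with NKTR-214. Xcl1 minus the mean of the 6 tested NK cell genes was 2.36, 2.19 and 2.13 against 2.43, 2.58 and 1.99, which overlapped (difference 0.11, exact permutation p = 0.6). That difference had no settled sign, at -0.52 with a pseudocount of 0.1 and -0.02 without ACT + NKTR-214 replicate 2. Ncr1, the activating receptor NKp46 that defines NK cells, overlapped between the groups, at 0.915, 0.536 and 0.294 FPKM against 0.553, 1.15 and 0.316 FPKM, and against Ncr1 alone the difference was 1.43. Klre1 and Klrc1, lectin receptors that activated CD8 T cells also express, were among the NK list genes that were higher, with log2 fold changes of 2.77 and 2.75 (limma adjusted p = 1.4e-06 and 1.36e-07). Klrb1c, which encodes NK1.1, and Klra7 were also higher, with 0.417 ± 0.219 against 3.69 ± 0.917 FPKM (limma adjusted p = 1.49e-06) and a 5.21-fold higher mean (adjusted p = 0.00027). All 7 NK list genes were named after their values were seen.

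Last, the genes whose levels tracked Xcl1 and Xcr1 most closely over the 6 tumors were taken from the 11557 genes with a mean of at least 1 FPKM, by Pearson's r of log2(FPKM + 1). For Xcl1 these were Ifit1bl1 (r = 0.9987), Abcg3 (0.9986), Ctps2 (0.9972), E2f2 (0.9972) and Spata13 (0.9963). For Xcr1 these were Madd (0.9983), Rasgef1b (0.998), Mif4gd (0.9976), Ifit1bl1 (0.9964) and Abcg3 (0.9962). Xcl1 and Xcr1 had r = 0.9932 with each other, Xcl1 taking rank 8 among the genes most like Xcr1 and Xcr1 rank 20 among those most like Xcl1, with Clec9a at rank 10 and 21. The other tested members with a mean of at least 1 FPKM came later, with Itgax at ranks 1010 and 1451, Irf8 at 1353 and 975, Batf3 at 1470 and 1829 and Zbtb46 at 5317 and 5193 for Xcl1 and Xcr1, as did Ptprc, Cd3e and Cd8a at ranks 337 to 1241 (r from 0.9176 to 0.9717). These values are a description: the 6 points fall into the treatment groups, they share their libraries, and in both groups the same tumors were high or low for most of these genes.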

How the data were processed

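Per the labels and the study's methods, RNA of whole tumors was read as single-end 50-base reads, mapped to GRCm38 with HISAT2 2.0.4 and counted per gene with HTSeq, and the authors deposited FPKM values, 1 column per tumor. The annotation they used is not given in the sources used here. All 6 columns were used.

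Values were taken as log2(FPKM + 1), and the 14172 genes with a mean of at least 0.1 FPKM entered a limma test (version 3.58.1, R 4.3.3; linear model with trended eBayes), with p-values adjusted over all of them by Benjamini and Hochberg's method and a threshold of 0.05. A log2 fold change is ACT + NKTR-214 minus ACT + IL-2. Ratios were tested with exact two-sided permutation tests. Reads behind low-level genes were recovered from the steps of their FPKM values, with exon positions and lengths from GENCODE on GRCm38, and are estimates that serve as descriptions. Of 1598 genes with whole reads to a tolerance of 0.06 read, 47.9% had a step that matched the annotated length to within 15%, and the members kept did so for 1 of their transcripts, Batf3 and Zbtb46 to within 11%. Irf8 and Itgax gave no unique step. Counting intervals are 95% intervals for Poisson counts and cover counting error only. Motifs were searched in RefSeq windows, found for 10 of 10 genes. The named genes were the 10 members, the 2 past-threshold list genes with the largest change in each direction, list genes at 0 in all tumors and the 5 genes most like Xcl1 and Xcr1. Others, such as Kit, Cacnb3 and genes too low to be tested, were named for their role or after their values were seen. The members and lists were chosen with earlier results of these data known.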

Additional observations from a re-analysis of the deposited data

How the results depend on the processing

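Alternatives covered the pseudocount, the filter, 2 scalings, the variance model, a replicate block and leaving out each tumor. Of the values that summarize a comparison, 204 stayed within 1.5 times or within 1 SD, 39 moved and 2 reversed. The cause of these changes was not tested. A member's fold change lost its call at the same sign in 17 cases.

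Without moderation 0 members were called higher, and in the wider lists 0 cDC1, 0 cDC2, 0 plasmacytoid, 0 shared, 0 mature and 0 growth factor genes were higher and 0 cDC1 genes lower, against 9, 6, 1, 3, 6 and 10 higher at an unadjusted p under 0.05. Over all genes 101 were then higher and 27 lower, where 2940 and 1173 were called in the reported fit. Leaving out 1 tumor gave 3 to 7 members higher, the 3 without ACT + IL-2 replicate 2. It also gave 2005 to 3476 genes higher and 636 to 1996 lower. In the lists it gave 7 to 12 cDC1 genes higher and 0 to 1 lower, 1 to 5 plasmacytoid genes higher, 0 to 1 shared genes lower and 0 to 1 mature genes lower. Scaling to a common 75th percentile gave 3709 genes lower, with 2 cDC1, 1 shared and 1 mature gene lower. Quantile normalization gave 4549 lower, with 2 cDC1, 1 plasmacytoid, 1 shared and 1 mature gene lower. With these scalings the middle log2 fold change over all tested genes went from 0.045 to -0.029 and -0.10. With no minimum, 0 cDC1 genes were lower and 1 plasmacytoid gene was higher. With a minimum of 1 FPKM, 1 shared gene was lower.

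Zbtb46 changed sign to -0.04 and -0.26 with the scalings, and to -0.07, -0.01 and -0.08 without ACT + IL-2 replicate 2, ACT + NKTR-214 replicate 1 and ACT + NKTR-214 replicate 2, in a range of -0.08 to 0.16. Cd209a changed sign to -0.10 with quantile normalization, and to -0.01, -0.07 and -0.03 without ACT + IL-2 replicates 2 and 3 and ACT + NKTR-214 replicate 2, in a range of -0.07 to 0.14. Irf8 also lost its call with no minimum (limma adjusted p = 0.0626). Xcl1 against T cells was -1.83 with a pseudocount of 0.1, -2.02 against Cd3e alone and -1.90 without a pseudocount, an alternative added after seeing the data, and -1.55 to -1.42 with a tumor left out. Xcl1 against NK cells was -0.52 with a pseudocount of 0.1 and 1.43 against Ncr1 alone, and ranged from -0.02 to 0.28 with a tumor left out. Itgax against Csf1r alone was 0.03, where it was -0.22 against the macrophage list.

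The replicate numbers of the labels name different mice. Deviations of same-numbered tumors correlated at -0.206, -0.067 and 0.396, and those of differently numbered tumors at -0.542 to 0.586. With 3 tumors per group these values cannot show whether the numbers pair the tumors. With the replicate number as a block, 7 members stayed higher and 1 shared gene was lower.

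The 3 tumors per group limit the permutation tests to p = 0.1, and the few reads of Cd209a and Siglech limit their precision. Levels in whole tumors do not give cell numbers.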
